A study of Mus musculus with 8 samples.

Results

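The genes of the mouse major histocompatibility complex (MHC) and of the machinery that loads peptides onto its products were followed in cultured peritoneal macrophages given nicotine, lipopolysaccharide (LPS) or both. The members were the genes of the deposited table whose symbol starts with H2-, together with B2m, Tap1, Tap2, Tapbp, Tapbpl, Erap1, Nlrc5, Ciita and Cd74, provided that at least 1 library reached 1 FPKM (fragments scaled by transcript length and library size, a level per transcript length). This took 35 of the 52 genes with such names, out of 24339 genes in all. The other 17 reached at most 0.456 FPKM in any library, and 11 of them were listed at 0 throughout. All 35 members had a mean of at least 1 FPKM and entered the tests. They were 6 class I loading genes, 2 classical class I heavy chains, 14 non-classical class I heavy chains, 4 class II chains, 6 class II accessory genes, 2 transcriptional regulators and H2-Ke6, a gene of the region that encodes a steroid-modifying dehydrogenase and does not present antigen.

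The macrophages came from C57BL/6 mice, either knockout (α7nAChR-/-, without the acetylcholine receptor subunit that Chrna7 encodes) or wild type. Cells of each genotype stood for 15 min with nicotine (10 µM) or vehicle, followed by 4 h with LPS (100 ng/ml), a bacterial cell wall component, or vehicle. Per the labels, cells were plated, washed after 1 h and used the next day. This made 8 groups of 1 library: nicotine with LPS, LPS alone, nicotine alone and vehicle, each in knockout and wild type cells. No group had a replicate, so a treatment was compared over the 2 genotypes (2 libraries against 2) and the genotype over the 4 treatments (4 libraries against 4), and the p-values measure how far the treatment differences varied between the genotypes. The labels do not give the animals behind each library, so genotype and cell preparation cannot be told apart.

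Chrna7 was listed at 0 in all 8 libraries, wild type included, and so did not check the genotype labels. Macrophage markers summed to 20440 to 34840 FPKM, with 8 of 8 at 1 FPKM or more in every library. Markers of B cells, which carry class II molecules constitutively, were also present: the 7 listed genes summed to 180 to 382 FPKM and none was at 0. The 8 dendritic cell markers summed to 64.2 to 207 FPKM, and Clec9a and Cd209a were at 0 in 1 library each. In RNA from whole cultures, fewer cells of a type and less RNA per cell cannot be told apart. The FPKM values of a library summed to 413052 to 854016, with the libraries given LPS alone highest and the vehicle libraries lowest. The table lists Gapdh, a housekeeping gene, at only 1.34 to 8.90 FPKM, and low values may therefore be failed estimates.

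Class I molecules present peptides from the cell's own proteins to CD8 T cells. The peptides are cut by the proteasome, carried into the endoplasmic reticulum by the Tap1-Tap2 transporter, trimmed by the aminopeptidase Erap1 and loaded with the help of tapasin (Tapbp), while B2m is the light chain of every class I molecule. Class II molecules present peptides from ingested material to CD4 T cells. The regulators differ as well: Nlrc5 drives class I and peptide loading genes, and Ciita is the master activator of class II genes. Non-classical class I molecules are less variable and often specialised, such as H2-M3, which presents formylated bacterial peptides, and H2-T23 (Qa-1), which engages inhibitory receptors of natural killer cells.

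Promoter sequences are shown because class I and class II genes are known to be controlled through partly different short motifs upstream of their starts. The RefSeq promoter table (GRCm38.p6) held 21 of the 35 members, in 23 windows from 250 bases before to 50 bases after the start. Each line gives the 250 bases before the start of one gene, 5′ to 3′, and capitals mark matches on either strand to the interferon regulatory factor core AANNGAAA, the cyclic AMP response core TGACG, the Y box core ATTGG, or the κB consensus. B2m, H2-D1, H2-M3 and H2-T22 stand for class I, Tap1 for peptide transport, and H2-Aa and H2-Eb1 for class II.
B2m, forward strand of chr2:122147437-122147686: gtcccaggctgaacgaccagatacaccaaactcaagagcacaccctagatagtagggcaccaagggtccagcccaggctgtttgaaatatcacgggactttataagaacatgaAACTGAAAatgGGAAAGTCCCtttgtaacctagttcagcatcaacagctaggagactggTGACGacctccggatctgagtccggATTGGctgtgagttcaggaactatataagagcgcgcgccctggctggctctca
H2-D1, forward strand of chr17:35262844-35263093: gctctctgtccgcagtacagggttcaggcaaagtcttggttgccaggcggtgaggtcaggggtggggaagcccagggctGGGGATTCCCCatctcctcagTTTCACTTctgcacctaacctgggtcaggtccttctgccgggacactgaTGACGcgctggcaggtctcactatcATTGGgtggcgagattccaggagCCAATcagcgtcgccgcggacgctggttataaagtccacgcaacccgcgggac
H2-M3, forward strand of chr17:37269984-37270233: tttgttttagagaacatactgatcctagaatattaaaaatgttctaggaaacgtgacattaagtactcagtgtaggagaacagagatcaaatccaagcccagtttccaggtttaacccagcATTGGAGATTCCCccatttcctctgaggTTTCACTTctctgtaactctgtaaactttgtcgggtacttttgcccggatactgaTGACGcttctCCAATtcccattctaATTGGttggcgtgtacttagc
H2-T22, reverse strand of chr17:36042743-36042992: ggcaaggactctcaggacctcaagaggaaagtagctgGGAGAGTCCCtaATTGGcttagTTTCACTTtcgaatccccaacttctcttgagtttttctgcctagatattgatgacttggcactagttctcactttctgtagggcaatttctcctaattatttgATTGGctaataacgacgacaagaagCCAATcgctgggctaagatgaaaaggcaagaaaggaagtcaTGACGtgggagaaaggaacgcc
Tap1, forward strand of chr17:34187306-34187555: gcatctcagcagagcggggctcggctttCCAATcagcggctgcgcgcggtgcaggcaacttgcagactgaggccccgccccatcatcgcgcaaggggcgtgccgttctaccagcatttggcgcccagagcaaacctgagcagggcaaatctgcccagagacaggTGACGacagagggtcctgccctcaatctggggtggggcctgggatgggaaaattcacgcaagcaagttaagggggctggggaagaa
H2-Aa, reverse strand of chr17:34287824-34288073: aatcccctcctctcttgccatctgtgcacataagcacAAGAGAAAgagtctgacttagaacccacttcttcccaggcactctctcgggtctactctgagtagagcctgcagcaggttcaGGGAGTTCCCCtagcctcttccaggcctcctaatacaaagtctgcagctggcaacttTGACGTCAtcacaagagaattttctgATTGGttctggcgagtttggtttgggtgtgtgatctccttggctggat
H2-Eb1, forward strand of chr17:34305617-34305866: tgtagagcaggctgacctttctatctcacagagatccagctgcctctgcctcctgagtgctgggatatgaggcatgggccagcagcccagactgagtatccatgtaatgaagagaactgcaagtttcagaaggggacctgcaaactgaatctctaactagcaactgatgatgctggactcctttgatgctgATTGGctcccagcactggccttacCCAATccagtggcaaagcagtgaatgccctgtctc

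All 8 class I heavy chain genes with a window (H2-K1, H2-D1, H2-M2, H2-M3, H2-Q4, H2-Q7, H2-T22 and H2-T23) held the interferon core, which was in 23.9% of the 32851 windows of the table. The κB consensus was in 7 of the 8, H2-T23 being the exception, against 4.51% of all windows, and TGACG was in the same 7, against 20.8% of all windows. The Y box core was in all 8 of these and in all 8 class II genes with a window, against 37.4% of all windows. Of the 8 class II genes, 4 held the interferon core, and H2-Aa was the 1 gene with TGACG or the κB consensus. Of 4 loading genes with a window, 2 held the interferon core, 2 TGACG, 3 the Y box core and 1 the κB consensus. In H2-D1 and H2-M3 the order from 5′ to 3′ was κB, interferon core, TGACG and Y box, and in H2-M3 a further Y box core overlapped the κB match. In H2-Aa, TGACG matched on both strands of one palindrome. Tap1 held TGACG and the Y box core in its 250 bases and neither of the other 2 motifs. These are letter matches in a window and were not tested against the levels.

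In the deposited scaling, LPS alone was followed by higher levels on the class I side and left the class II side divided. Under quantile scaling, which gives all libraries the same distribution, B2m and H2-D1 were called lower. H2-K1 (-0.19, adjusted p = 0.435), Erap1, H2-T23 and H2-M3 no longer passed. Class II was then not divided: 5 of 6 accessory genes and 3 of 4 chains were called lower and 0 higher. Over all genes tested, 3284 were called lower and 2704 higher under that scaling. Of the 35 members, 24 were higher and 4 lower in LPS than in vehicle libraries, where 32.7% of the 10447 genes tested were higher and 26.4% lower. The median member differed by 1.06 on the log2 scale (log2 of FPKM + 1, used for all differences here), against 0.08 over all genes tested. All 6 loading genes, both classical heavy chains and 13 of the 14 non-classical heavy chains rose, though not all did under quantile scaling, as given above. Each of the 24 was higher, and each of the 4 lower, in both genotypes. The p-values measure disagreement between the genotypes, so a call already favours this and it is no separate support. Under quantile scaling the split was 16 higher and 12 lower, and the share of higher calls among all genes called was 45.2%, against 55.4% as reported, while the median of all genes tested moved to -0.07.

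The peptide transporter showed the largest rise among loading genes. Tap1 was at 402 FPKM in knockout and 294 FPKM in wild type cells given LPS, against 52.4 FPKM in knockout and 17.4 FPKM in wild type cells given vehicle. Its partner Tap2 was at 223 FPKM in knockout and 182 FPKM in wild type LPS cells, against 39.1 FPKM in knockout and 20.3 FPKM in wild type vehicle cells. For both genes the LPS and vehicle libraries did not overlap, and the differences were 3.46 ± 0.34 for Tap1 (adjusted p = 0.000368) and 2.79 ± 0.28 for Tap2 (SE, adjusted p = 0.000409). Tapbp, the tapasin that bridges transporter and class I molecule, was at 757 and 637 FPKM in knockout and wild type LPS cells, against 243 and 103 FPKM in knockout and wild type vehicle cells, a difference of 2.13 ± 0.24. Tapbpl, a tapasin-related peptide editor, rose by 1.39 ± 0.24 and Erap1 by 0.99 ± 0.16, a call lost under quantile scaling (0.42, adjusted p = 0.112).

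B2m was the most abundant member per length. It was at 8456 FPKM in knockout and 5807 FPKM in wild type LPS cells, against 4609 FPKM in knockout and 2441 FPKM in wild type vehicle cells. The difference was 1.06 ± 0.14, but it turned to -0.81 under quantile scaling. The classical heavy chains were next in level on the class I side. H2-K1 was at 2257 and 1730 FPKM in knockout and wild type LPS cells, against 1223 and 737 FPKM in knockout and wild type vehicle cells. H2-D1 was at 2214 and 2223 FPKM in knockout and wild type LPS cells, against 1333 and 1427 FPKM in knockout and wild type vehicle cells. H2-K1 rose by 1.06 ± 0.13 and H2-D1 by 0.69 ± 0.11. Under quantile scaling their differences were -0.19 (adjusted p = 0.435) and -0.63 (adjusted p = 0.0195). The direction of B2m and of both classical chains thus rests on the scaling of the libraries.

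Non-classical heavy chains rose with a median of 1.91. Quantile scaling turned the direction of none that was called but ended the calls of H2-T23 (0.34, adjusted p = 0.152) and H2-M3 (0.37, adjusted p = 0.0623). The largest difference among them was that of H2-T22, a ligand of some γδ T cell receptors, at 2.74 ± 0.28. It was at 146 FPKM in knockout and 102 FPKM in wild type LPS cells, against 28.3 FPKM in knockout and 10.64 FPKM in wild type vehicle cells. H2-T10 (2.57 ± 0.32), H2-T9 (2.36 ± 0.26), H2-T24 (2.18 ± 0.20), H2-Q7 (2.04 ± 0.46) and H2-Q4 (1.97 ± 0.23) followed. H2-T23 was at 500.2 and 416 FPKM in knockout and wild type LPS cells, against 193 and 139.5 FPKM in knockout and wild type vehicle cells, a rise of 1.47 ± 0.16. H2-M3 rose by 0.99 ± 0.15 and H2-Q1 by 0.77 ± 0.17. The 1 non-classical gene that did not pass was H2-K2, annotated as a transcribed pseudogene, at -0.10 ± 0.22. The call of H2-Q7 was lost without the wild type vehicle library (adjusted p = 0.0676) and that of H2-Q1 without the knockout vehicle library (adjusted p = 0.0689).

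Several of these genes share sequence, so their reads may have been split or counted more than once. Of all 50-base stretches in the transcripts of each gene, 42.8% of those of H2-T22, 40.7% of H2-T10, 42.6% of H2-Q5 and 34.9% of H2-Q7 also occurred in another gene's transcripts. The summed level of H2-T9, H2-T10 and H2-T22, which depends less on how reads were divided among them, was 364 FPKM in knockout and 257 FPKM in wild type LPS cells, against 73.6 FPKM in knockout and 35.4 FPKM in wild type vehicle cells. H2-Q8, H2-Q9 and H2-T9 were not in the annotation used, so their sharing was not measured. H2-K1 shared 12.1% and H2-D1 13.9% of such stretches. Of the members measured, H2-Ke6 shared the most, 61.6%, with Gm20427. H2-M3 shared 0.6%, Tap1 0.8% and Tap2 0.7%, and B2m, Nlrc5, Ciita, Cd74, H2-Aa, H2-Ab1 and H2-Eb1 shared none.

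The 2 regulators moved in opposite directions. Nlrc5 was at 117 FPKM in knockout and 98.9 FPKM in wild type LPS cells, against 12.8 FPKM in knockout and 5.32 FPKM in wild type vehicle cells. Its difference of 3.54 ± 0.24 (adjusted p = 0.000127) was the largest of any member. Ciita was at 5.50 FPKM in knockout and 4.64 FPKM in wild type LPS cells, against 9.02 FPKM in knockout and 8.52 FPKM in wild type vehicle cells, lower by 0.69 on the log2 scale (-0.69 ± 0.14, adjusted p = 0.00502). For both regulators the LPS and vehicle libraries did not overlap, and quantile scaling left both directions as they were.

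Among the class II chains, 1 of 4 passed. H2-Ab1, the β chain of the I-A molecule, was at 1048 and 732 FPKM in knockout and wild type LPS cells, against 591 and 396 FPKM in knockout and wild type vehicle cells, a difference of 0.85 ± 0.12 that became -0.21 under quantile scaling. Its partner α chain H2-Aa differed by 0.36 ± 0.16 (adjusted p = 0.0878) and H2-Eb1 by 0.39 ± 0.16 (adjusted p = 0.0761). Under quantile scaling both were called lower, at -0.77 and -0.75. H2-Eb2 differed by -0.45 ± 0.17 (adjusted p = 0.0615) and was called lower under quantile scaling, at -0.55. Cd74, the invariant chain that guards the class II groove until peptide loading, was at 1811 and 1716 FPKM in knockout and wild type LPS cells, against 1146 and 1031 FPKM in knockout and wild type vehicle cells. Its difference of 0.70 ± 0.15 turned to -0.49 under quantile scaling and missed the threshold without the wild type vehicle library (0.57, adjusted p = 0.0606).

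The class II accessory genes that edit peptides did not follow Cd74. H2-DMa, a chain of the H2-M peptide exchanger, was lower in LPS than in vehicle libraries by 0.63 on the log2 scale (-0.63 ± 0.18), and H2-Ob, a chain of the H2-O inhibitor of that exchange, fell by 0.72 (SE 0.23). The H2-DMa call was lost without either vehicle library or the LPS library of wild type cells (adjusted p from 0.0776 to 0.111). The H2-Ob call was lost in 5 of the 8 fits that left out a library (adjusted p from 0.0521 to 0.153), those without the wild type vehicle, LPS or nicotine with LPS library or without the knockout vehicle or nicotine with LPS library. H2-DMb1 (0.02 ± 0.14), H2-DMb2 (-0.34 ± 0.22) and H2-Oa (-0.21 ± 0.22) did not pass. Under quantile scaling H2-DMb1 (-0.73) and H2-DMb2 (-0.81) were called lower, and H2-Oa (-0.39) still did not pass. H2-Ke6 fell by 0.84 (SE 0.18), a call lost without the knockout vehicle library (adjusted p = 0.0510). B cell markers summed to 292 and 234 FPKM in knockout and wild type LPS cells, against 281 and 299.8 FPKM in knockout and wild type vehicle cells, and their part in the class II values was not tested.

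**Figure D1:**
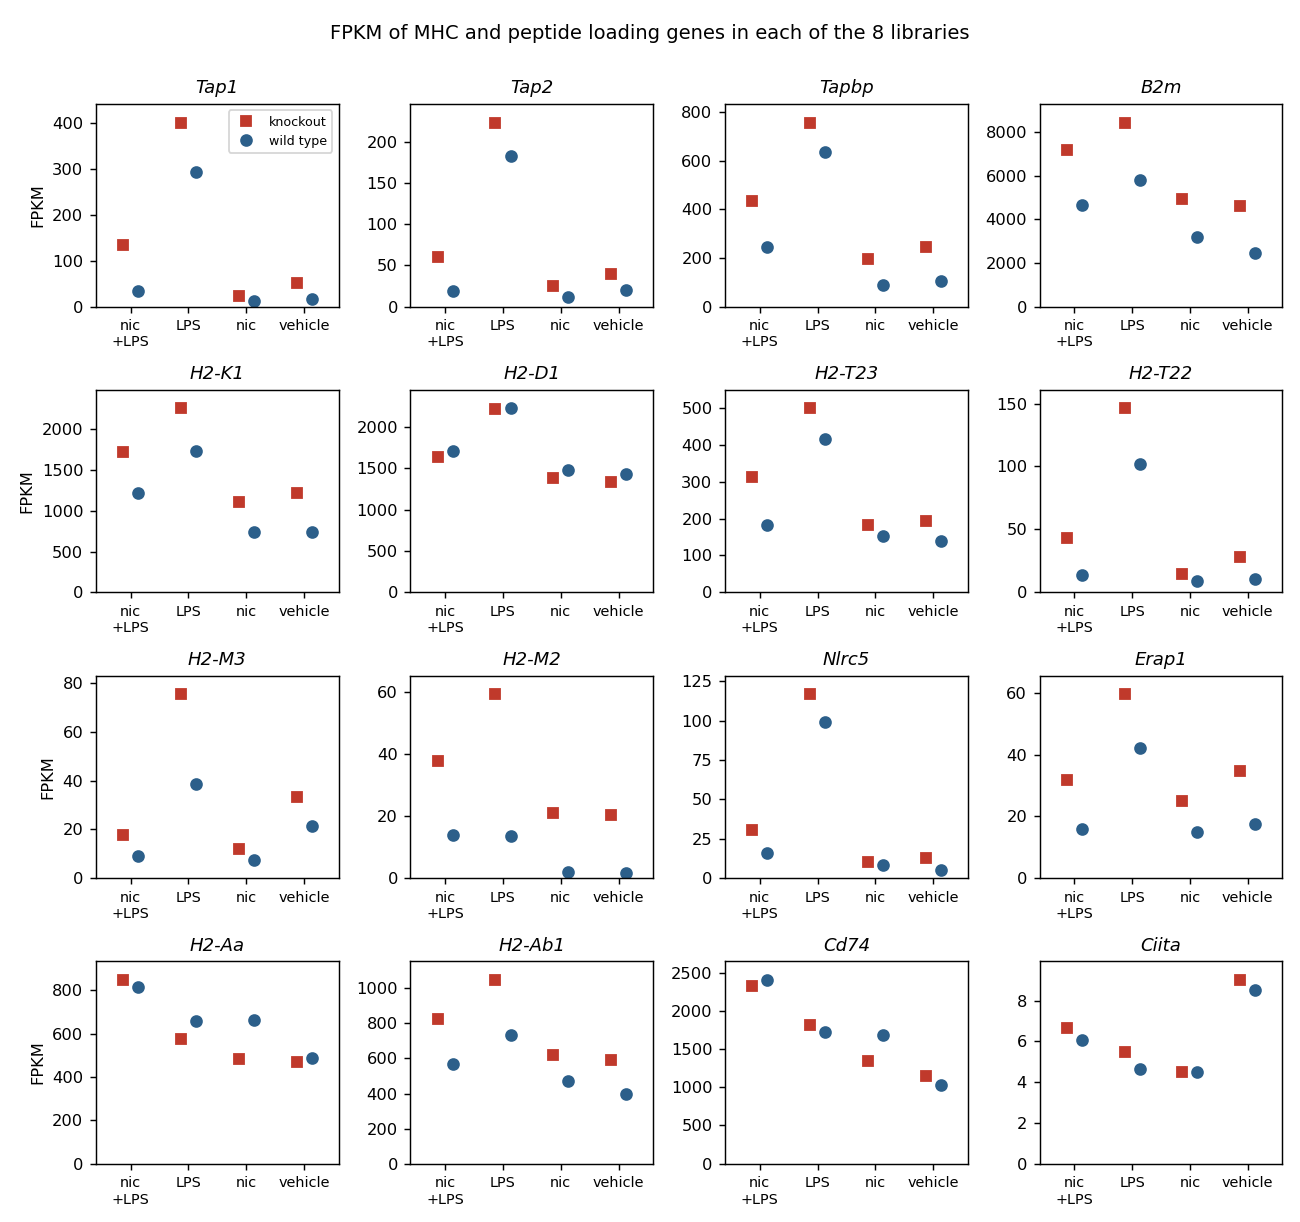
Level (FPKM, linear axis from 0) of 16 members in each of the 8 libraries, with knockout as red squares and wild type as blue circles and 1 library per point; nic is nicotine. Tap1, Tap2 and Nlrc5 peak with LPS alone, where Tap1 reached 402 FPKM in knockout and 294 FPKM in wild type cells, and are lower with nicotine before LPS, while Cd74 and H2-Aa are highest with nicotine and LPS together.

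Given before LPS, nicotine was followed by lower levels across the class I loading pathway. Of the 35 members, 17 were lower and 3 higher in nicotine with LPS than in LPS alone, where 28.6% of all genes tested were lower and 26.9% higher. The median member differed by -0.32, against -0.03 over all genes tested. The lower members were 5 of 6 loading genes, both classical heavy chains, 7 of 14 non-classical heavy chains, 2 of 4 class II chains and Nlrc5. All 20 called members moved the same way in both genotypes, which a call here already favours. Under quantile scaling 13 were lower and 8 higher, where 2656 of the 10447 genes tested were lower and 2845 higher. Among the loading genes 5 then stayed lower while B2m was called higher.

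Tap1 was at 135 FPKM in knockout and 34.3 FPKM in wild type cells given nicotine and LPS, against 402 FPKM in knockout and 294 FPKM in wild type cells given LPS alone. Tap2 was at 60.1 FPKM in knockout and 19.2 FPKM in wild type cells given nicotine and LPS, against 223 FPKM in knockout and 182 FPKM in wild type cells given LPS alone. The differences were -2.32 ± 0.34 for Tap1 (adjusted p = 0.00191) and -2.53 ± 0.28 for Tap2 (adjusted p = 0.000724). Erap1 fell by 1.12 (SE 0.16), Tapbp by 1.08 (SE 0.24) and Tapbpl by 1.06 (SE 0.24). The Tapbp call was lost without the wild type or the knockout library given nicotine and LPS (adjusted p = 0.0589 and 0.0662), and the Tapbpl call without the wild type one (adjusted p = 0.0817). B2m, at 7181 and 4682 FPKM in knockout and wild type cells given nicotine and LPS, against 8456 and 5807 FPKM in knockout and wild type cells given LPS alone, differed by -0.27 ± 0.14 (adjusted p = 0.129) and by 0.54 under quantile scaling.

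Nlrc5 fell by 2.22 (SE 0.24, adjusted p = 0.000674). It was at 30.5 FPKM in knockout and 16.2 FPKM in wild type cells given nicotine and LPS, against 117 FPKM in knockout and 98.9 FPKM in wild type cells given LPS alone. Its levels with nicotine and LPS still lay above those of vehicle cells, 12.8 FPKM in knockout and 5.32 FPKM in wild type. Ciita differed by 0.28 ± 0.14 and did not pass (adjusted p = 0.123).

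The non-classical chains split into genes that fell, genes that rose and genes that did not pass. H2-T9 had the largest fall (-3.04 ± 0.26), to 34.9 and 10.08 FPKM in knockout and wild type cells given nicotine and LPS, against 198 and 134 FPKM in knockout and wild type cells given LPS alone. H2-T24 fell by 2.87 (SE 0.20), H2-T22 by 2.27 (SE 0.28), H2-M3 by 2.01 (SE 0.15), H2-T10 by 1.76 (SE 0.32), H2-Q9 by 1.34 (SE 0.15) and H2-T23 by 0.92 (SE 0.16). H2-M3, with little sequence shared with other genes, was at 17.8 FPKM in knockout and 8.82 FPKM in wild type cells given nicotine and LPS, against 75.5 FPKM in knockout and 38.5 FPKM in wild type cells given LPS alone. The summed level of H2-T9, H2-T10 and H2-T22 was 86.9 FPKM in knockout and 26.7 FPKM in wild type cells given nicotine and LPS, against 364 FPKM in knockout and 257 FPKM in wild type cells given LPS alone. These falls kept their direction under quantile scaling.

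H2-Q5 and H2-K2 rose instead. Both have pseudogene annotations, but so does H2-T10, which fell. H2-Q5 was at 79.6 FPKM in knockout and 82.0 FPKM in wild type cells given nicotine and LPS, against 24.9 FPKM in knockout and 28.0 FPKM in wild type cells given LPS alone, higher by 1.58 ± 0.25. H2-K2 was higher by 1.26 ± 0.22. Of the other genes of the Q region, H2-Q9 fell, as given above, while H2-Q1 (0.06 ± 0.17), H2-Q4 (-0.32 ± 0.23), H2-Q7 (0.16 ± 0.46) and H2-Q8 (0.32 ± 0.26) did not pass. H2-Q5 shares 29.4% of its 50-base stretches with H2-Q7, so a division of reads between them cannot be told apart from a change in either. The summed level of H2-Q7, H2-Q8 and H2-Q9 was 262 FPKM in knockout and 159 FPKM in wild type cells given nicotine and LPS. With LPS alone it was 197 FPKM in knockout and 202 FPKM in wild type cells. The sum was thus higher with nicotine in knockout and lower in wild type cells. The part of read division in the H2-Q9 fall was not tested.

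The classical heavy chains were lower in the deposited scaling, but under quantile scaling their differences were -0.17 for H2-K1 (adjusted p = 0.499) and -0.09 for H2-D1 (adjusted p = 0.682). H2-K1 was at 1726 and 1218 FPKM in knockout and wild type cells given nicotine and LPS, against 2257 and 1730 FPKM in knockout and wild type cells given LPS alone (-0.45 ± 0.13, adjusted p = 0.0272). H2-D1 was at 1639 and 1705 FPKM in knockout and wild type cells given nicotine and LPS, against 2214 and 2223 FPKM in knockout and wild type cells given LPS alone (-0.41 ± 0.11, adjusted p = 0.0218). Neither call held in every fit that left out a library. That of H2-K1 was lost in 5 (adjusted p from 0.0668 to 0.14), without any of the 4 nicotine libraries or the wild type LPS library, and that of H2-D1 in 4 (adjusted p from 0.0633 to 0.12), without any of the 4 nicotine libraries.

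Class II genes did not fall as a group under LPS with nicotine. H2-Ab1 differed by -0.36 ± 0.12 and H2-Eb2 by -0.56 ± 0.17, past the threshold with all libraries, and neither passed under quantile scaling (adjusted p = 0.232 and 0.0567). The H2-Ab1 call was lost without any one of the 8 libraries (adjusted p from 0.0589 to 0.191), and that of H2-Eb2 in 4 of these fits (adjusted p from 0.0508 to 0.221), without either nicotine alone library or without one of the wild type libraries given LPS, with or without nicotine. Cd74 was at 2324 and 2405 FPKM in knockout and wild type cells given nicotine and LPS, against 1811 and 1716 FPKM in knockout and wild type cells given LPS alone, a difference of 0.42 ± 0.15 at the edge of the threshold (adjusted p = 0.0501). H2-Aa differed by 0.43 ± 0.16 (adjusted p = 0.0522) and H2-Eb1 by 0.31 ± 0.16 (adjusted p = 0.146). Under quantile scaling the differences of Cd74, H2-Aa and H2-Eb1 were 0.82, 0.68 and 0.67 and were called higher. H2-Ob rose by 1.43 ± 0.23, to 37.2 and 41.8 FPKM in knockout and wild type cells given nicotine and LPS, against 13.7 and 14.2 FPKM in knockout and wild type cells given LPS alone. B cell markers summed to 382 and 332 FPKM in knockout and wild type cells given nicotine and LPS, against 292 and 234 FPKM in knockout and wild type cells given LPS alone, and dendritic cell markers to 207 and 154 FPKM, against 140.5 and 96.5 FPKM. Mast cell markers summed to 572 and 751 FPKM, against 207 and 282 FPKM in the same order of genotypes. T cell markers were higher too, at 50.6 and 39.1 FPKM, against 22.8 and 13.6 FPKM. Markers of large resident peritoneal macrophages were lower, at 244 and 346 FPKM, against 525 and 432 FPKM. Neutrophil markers were also lower, at 115 and 88.8 FPKM, against 270 and 193 FPKM. Within the dendritic cell list, Zbtb46 and Kmo were lower in both genotypes. The part of these marker levels in the result was not tested.

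**Figure D2:**
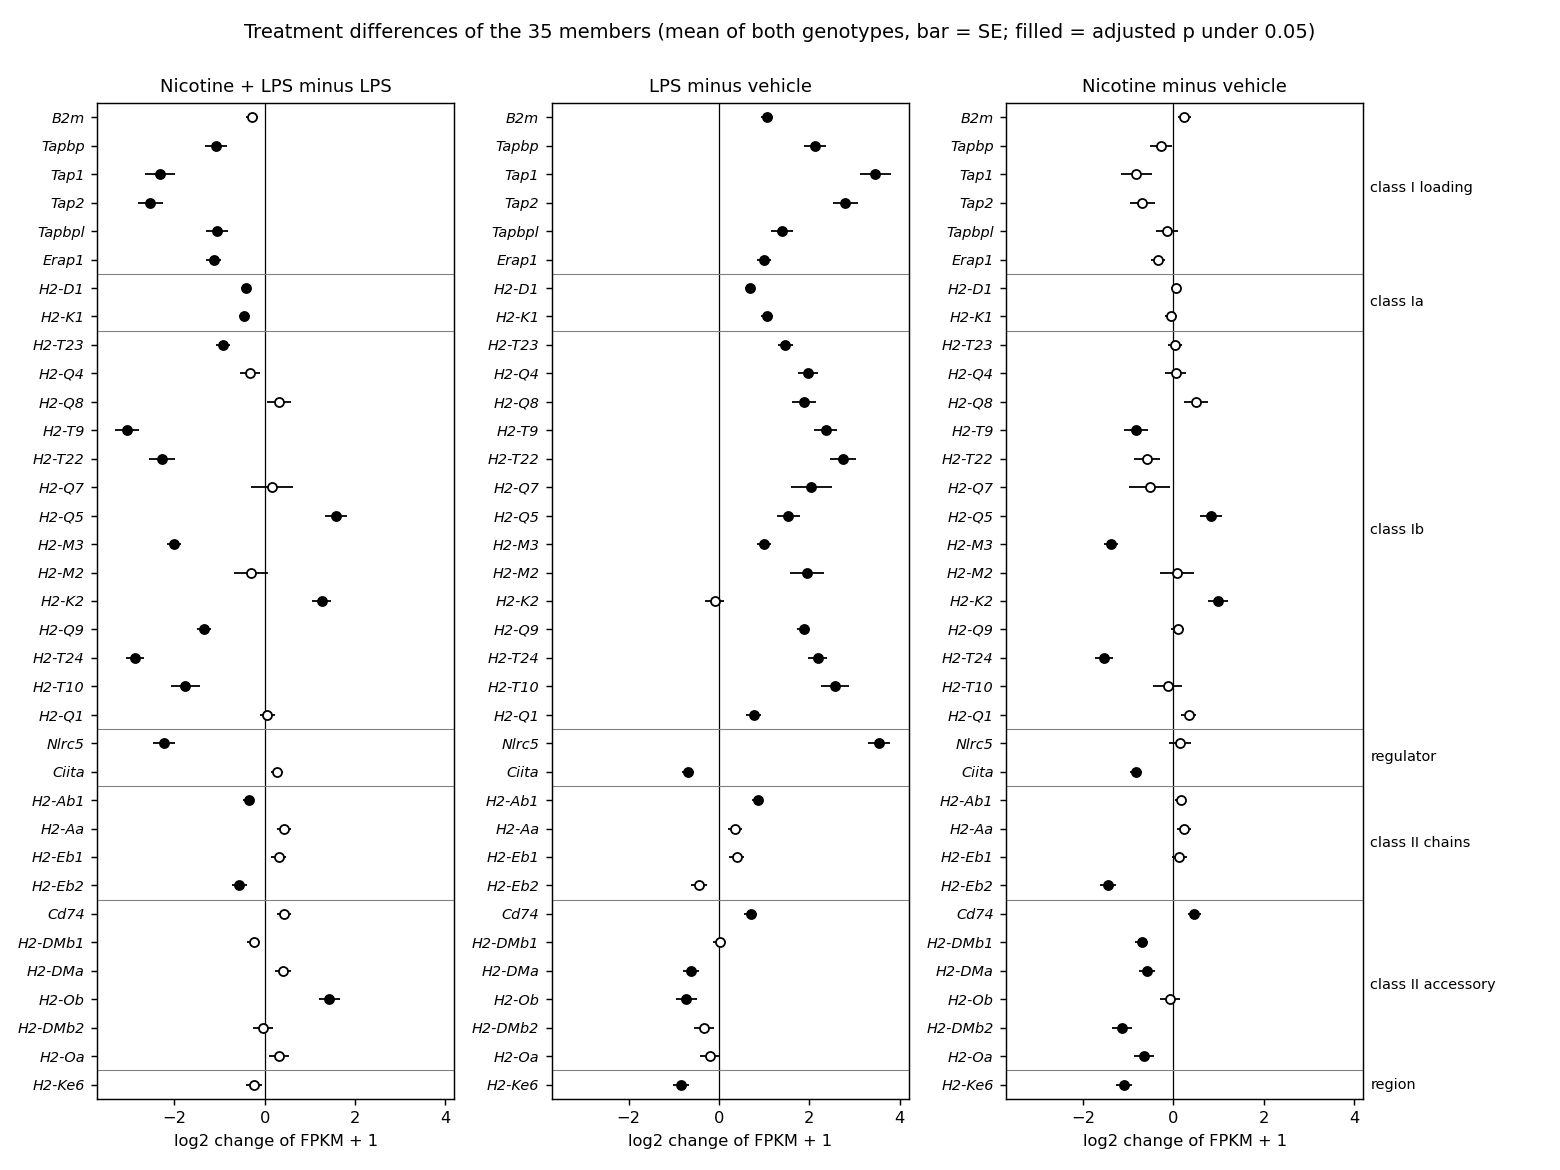
Difference in log2(FPKM + 1) of each of the 35 members for nicotine with LPS minus LPS alone (left), LPS minus vehicle (middle) and nicotine minus vehicle (right); points are the mean over both genotypes, bars are SE, and filled points have an adjusted p under 0.05. Loading genes lie right of 0 in the middle panel (B2m turned under quantile scaling) and left of 0 in the left panel, from -2.53 for Tap2 to -0.27 for B2m, and none is filled in the right panel.

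Nicotine without LPS left the class I loading genes under the threshold, and 4 of 6 class II accessory genes were lower and 1 higher. Of these 4 falls, only that of H2-DMb2 held without each library. Of the 35 members, 10 were lower and 3 higher in nicotine than in vehicle libraries, where 26% of all genes tested were lower and 30.1% higher. The share of lower calls among members was thus close to that of all genes. The median member differed by -0.13, against 0.03 over all genes tested. None of the 6 loading genes passed in this fit. An unadjusted p under 0.05 was reached by 2 of them, against 6454 of the 10447 genes tested. Under quantile scaling 4 of the 6 were called lower, against 2968 of all genes tested. The nearest to the threshold were Tap2 (-0.69 ± 0.28, adjusted p = 0.0780) and Tap1 (-0.82 ± 0.34, adjusted p = 0.0802). Tap1 was at 23.02 FPKM in knockout and 12.1 FPKM in wild type cells given nicotine, against 52.4 FPKM in knockout and 17.4 FPKM in wild type vehicle cells, so that the groups overlapped. H2-D1 (0.05 ± 0.11), H2-K1 (-0.06 ± 0.13) and Nlrc5 (0.14 ± 0.24) did not pass either.

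The class II activator Ciita was lower. It was at 4.52 FPKM in knockout and 4.49 FPKM in wild type cells given nicotine, against 9.02 FPKM in knockout and 8.52 FPKM in wild type vehicle cells, a fall of 0.83 (SE 0.14, adjusted p = 0.00292) that held without each library. H2-DMb2 was at 9.99 and 13.5 FPKM in knockout and wild type cells given nicotine, against 26.9 and 26.5 FPKM in knockout and wild type vehicle cells, a fall of 1.13 (SE 0.22). H2-DMb1 fell by 0.70 (SE 0.14), H2-DMa by 0.58 (SE 0.18), H2-Oa by 0.65 (SE 0.22) and H2-Eb2 by 1.45 (SE 0.17). The main class II chains H2-Aa (0.23 ± 0.16), H2-Ab1 (0.16 ± 0.12) and H2-Eb1 (0.13 ± 0.16) did not pass, while Cd74 rose by 0.46 ± 0.15, but by only 0.04 under quantile scaling (adjusted p = 0.824). H2-DMb1 shares 25.7% of its 50-base stretches, all with H2-DMb2, and their summed level was 38.0 FPKM in knockout and 49.0 FPKM in wild type cells given nicotine, against 79.2 FPKM in knockout and 78.2 FPKM in wild type vehicle cells. B cell markers summed to 180 and 248.8 FPKM in knockout and wild type cells given nicotine, against 281 and 299.8 FPKM in knockout and wild type vehicle cells, and their part in the class II falls was not tested.

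On the class I side, nicotine alone lowered H2-T24 by 1.53 (SE 0.20), H2-M3 by 1.39 (SE 0.15) and H2-T9 by 0.83 (SE 0.26), and raised H2-K2 by 0.98 ± 0.22 and H2-Q5 by 0.83 ± 0.25, the last call being lost under quantile scaling (adjusted p = 0.0591). H2-M3 was at 11.98 FPKM in knockout and 7.55 FPKM in wild type cells given nicotine, against 33.3 FPKM in knockout and 21.3 FPKM in wild type vehicle cells. H2-Ke6 fell by 1.10 (SE 0.18). Of the 13 calls, 6 held in every fit that left out a library, those of Ciita, H2-DMb2, H2-Eb2, H2-Ke6, H2-M3 and H2-T24. Cd74, H2-DMa, H2-Oa and H2-Q5 were lost in 5 of 8 such fits each, H2-T9 in 4, and H2-DMb1 and H2-K2 in 2 (adjusted p up to 0.313). The number of members called was lowest without the knockout vehicle library, at 7, and was 8 without the wild type vehicle library or the knockout nicotine library.

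Whether nicotine acted differently in the presence of LPS was tested directly, as the LPS by nicotine interaction. A negative value means that the nicotine difference was more negative with LPS than without. Of the 35 members, 9 had a negative and 6 a positive interaction past the threshold, where 17.3% of all genes tested were negative and 12.8% positive. The 9 negative ones were Nlrc5, 2 loading genes (Tap2 and Erap1) and 6 non-classical chains (H2-T9, H2-T22, H2-T10, H2-Q9, H2-T24 and H2-T23). The 6 positive ones were Ciita, H2-Ob, H2-DMb2, H2-DMa, H2-Eb2 and H2-Ke6. Under quantile scaling 4 members were negative and 11 positive, none of the 6 loading genes passed, the calls of H2-T22, H2-T23 and H2-T24 were lost as well (adjusted p from 0.0523 to 0.747), and the share of positive calls among all genes called was 55.4%, against 42.4% as reported.

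Nlrc5 had the most negative value, -2.36 ± 0.34 (adjusted p = 0.00698): the nicotine difference was -2.22 with LPS and 0.14 without. Its call held under all 14 alternatives. For Tap2 the interaction was -1.84 ± 0.40 (adjusted p = 0.0189) and for Tap1 -1.50 ± 0.48, which did not pass (adjusted p = 0.0577). H2-M3 fell with nicotine in both settings, and its interaction of -0.62 ± 0.22 did not pass (adjusted p = 0.0722). Ciita had a positive value, 1.11 ± 0.19 (adjusted p = 0.0104): the nicotine difference was 0.28 with LPS and -0.83 without. The calls of Nlrc5, H2-Q9 and H2-T9 held without each library. The number of calls was less stable than for the separate treatments: leaving out 1 library gave 3 to 18 calls, with 3 without the wild type library given nicotine and LPS, 4 without wild type vehicle, 5 without knockout vehicle or knockout nicotine, 8 without wild type nicotine and 9 without wild type LPS.

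**Figure D3:**
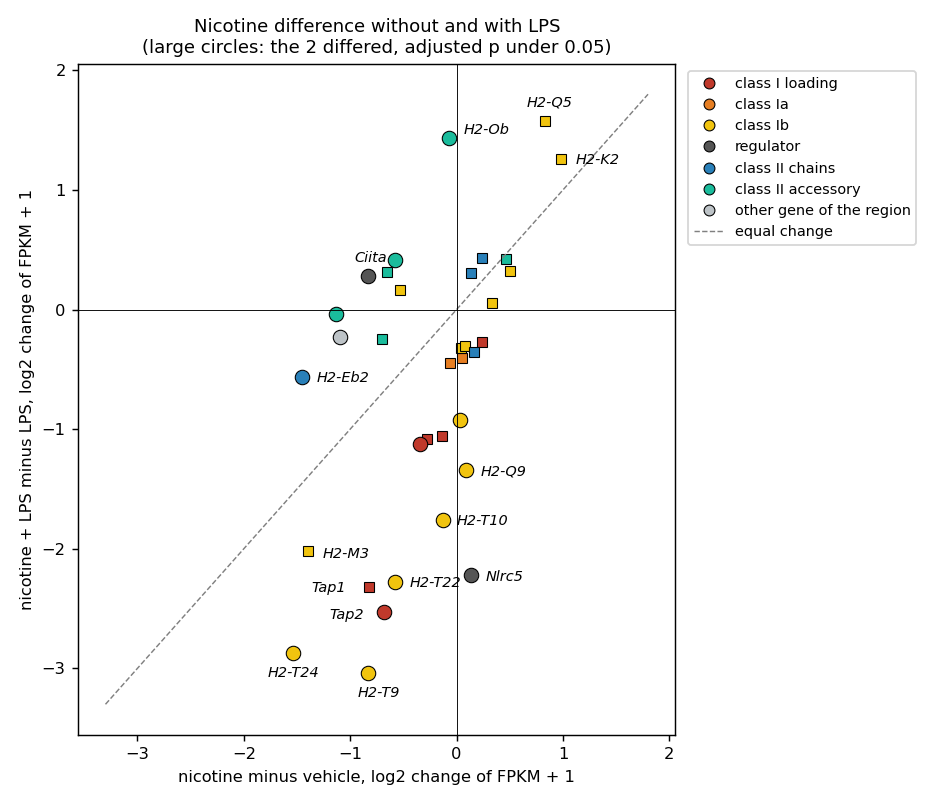
Difference in log2(FPKM + 1) between nicotine with LPS and LPS alone (vertical axis) against that between nicotine and vehicle (horizontal axis) for the 35 members, coloured by class; large circles mark the 15 members whose 2 differences were not equal by the interaction test and the dashed line marks equal differences. Nlrc5, Tap2 and H2-T22 lie well under the line and H2-Ob and Ciita above it.

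Knockout libraries had higher levels of all 6 loading genes than wild type libraries, 5 of which were also called under quantile scaling (Tap2 was not, at an adjusted p of 0.0619). Of the 35 members, 14 were higher and 0 lower in knockout cells, where 4.76% of all genes tested were higher and 2.88% lower. The median member differed by 0.51, against -0.01 over all genes tested. The 14 were the 6 loading genes, H2-K1, 6 non-classical chains and H2-Ab1. Each was higher in all 4 matched pairs of libraries, which a call here already favours. At an unadjusted p under 0.05 the number of members was 18, none of them lower than in wild type. Over all 10447 genes tested that number was 2776, in either direction. None of the 6 class II accessory genes and neither regulator passed.

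H2-M2, a non-classical chain of the distal M region, differed most, by 2.32 ± 0.26 (adjusted p = 0.00653). Its level was 37.7 FPKM in knockout and 13.7 FPKM in wild type cells given nicotine and LPS, 59.2 FPKM in knockout and 13.4 FPKM in wild type cells given LPS, 20.8 FPKM in knockout and 1.98 FPKM in wild type cells given nicotine, and 20.2 FPKM in knockout and 1.75 FPKM in wild type vehicle cells. Every knockout library was above every wild type library. H2-M2 was the 1 member whose genotype call held under all 14 alternatives, with an adjusted p of at most 0.0402.

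The loading genes differed by 0.68 ± 0.10 for B2m, 0.77 ± 0.12 for Erap1, 0.86 ± 0.17 for Tapbp, 0.86 ± 0.17 for Tapbpl, 0.94 ± 0.20 for Tap2 and 1.20 ± 0.24 for Tap1 (adjusted p from 0.0134 to 0.0404). Tap1 was higher in knockout by 1.94 in cells given nicotine and LPS, by 0.45 in cells given LPS, by 0.87 in cells given nicotine and by 1.54 in vehicle cells. The gap between genotypes was thus smallest with LPS alone, as it was for Tap2 (1.60, 0.29, 0.96 and 0.91 in the same order of treatments) and for Tapbp (0.81, 0.25, 1.17 and 1.23). Whether the genotype difference depended on LPS was not tested. The counts rested on the libraries used: 1 member was called without either library given nicotine and LPS, 3 without either nicotine library and 4 without either vehicle library, against 17 without either LPS library.

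Genes of the same complex did not all share the difference. H2-K1 was higher in knockout by 0.55 ± 0.09, while H2-D1, the other classical chain, differed by -0.06 ± 0.08, with overlapping genotypes, from 1333 to 2214 FPKM in knockout and from 1427 to 2223 FPKM in wild type libraries. Among class II chains, H2-Ab1 was higher by 0.51 ± 0.08, but H2-Aa (-0.16 ± 0.11) and H2-Eb1 (-0.17 ± 0.11) did not pass. Among non-classical chains, H2-T22 (1.02 ± 0.20), H2-T9 (1.01 ± 0.18), H2-Q9 (0.88 ± 0.10), H2-T24 (0.85 ± 0.14) and H2-M3 (0.78 ± 0.11) were higher besides H2-M2, and the call of H2-T22 was lost under quantile scaling (adjusted p = 0.0589). Nlrc5 differed by 0.63 ± 0.17 and did not pass (adjusted p = 0.0768), and Ciita differed by 0.10 ± 0.10. The genes called lie on several chromosomes: B2m on 2, Tapbpl on 6, Erap1 on 13, and the transporter, tapasin and the heavy chains with a known position on 17.

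Cell type markers also differed between the genotypes, and not all in one direction. The 8 dendritic cell markers summed to 207, 140.5, 111 and 72.4 FPKM in knockout cells given nicotine with LPS, LPS, nicotine and vehicle, against 154, 96.5, 102 and 64.2 FPKM in wild type cells in the same order, higher in knockout in each pair. Within that list Itgax and Ccr7 were higher in knockout in all 4 pairs, while Cd209a was at 0 to 0.156 FPKM in the 4 knockout libraries, against 7.86 to 19.8 FPKM in the 4 wild type libraries. The 7 markers of large resident peritoneal macrophages summed to 244, 525, 246 and 271 FPKM in knockout, against 346, 432, 359 and 435 FPKM in wild type cells in the same order of treatments. Among them F5 was at 10.26 to 17.0 FPKM in knockout, against 50.9 to 89.2 FPKM in wild type libraries, whereas Timd4 was at 78.3 to 222 FPKM in knockout, against 20.3 to 108 FPKM in wild type libraries, and was higher in knockout in every pair. The summed macrophage markers ranged from 20440 to 30910 FPKM in knockout and from 26520 to 34840 FPKM in wild type libraries. The part of these differences in the genotype result was not tested.

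**Figure D4:**
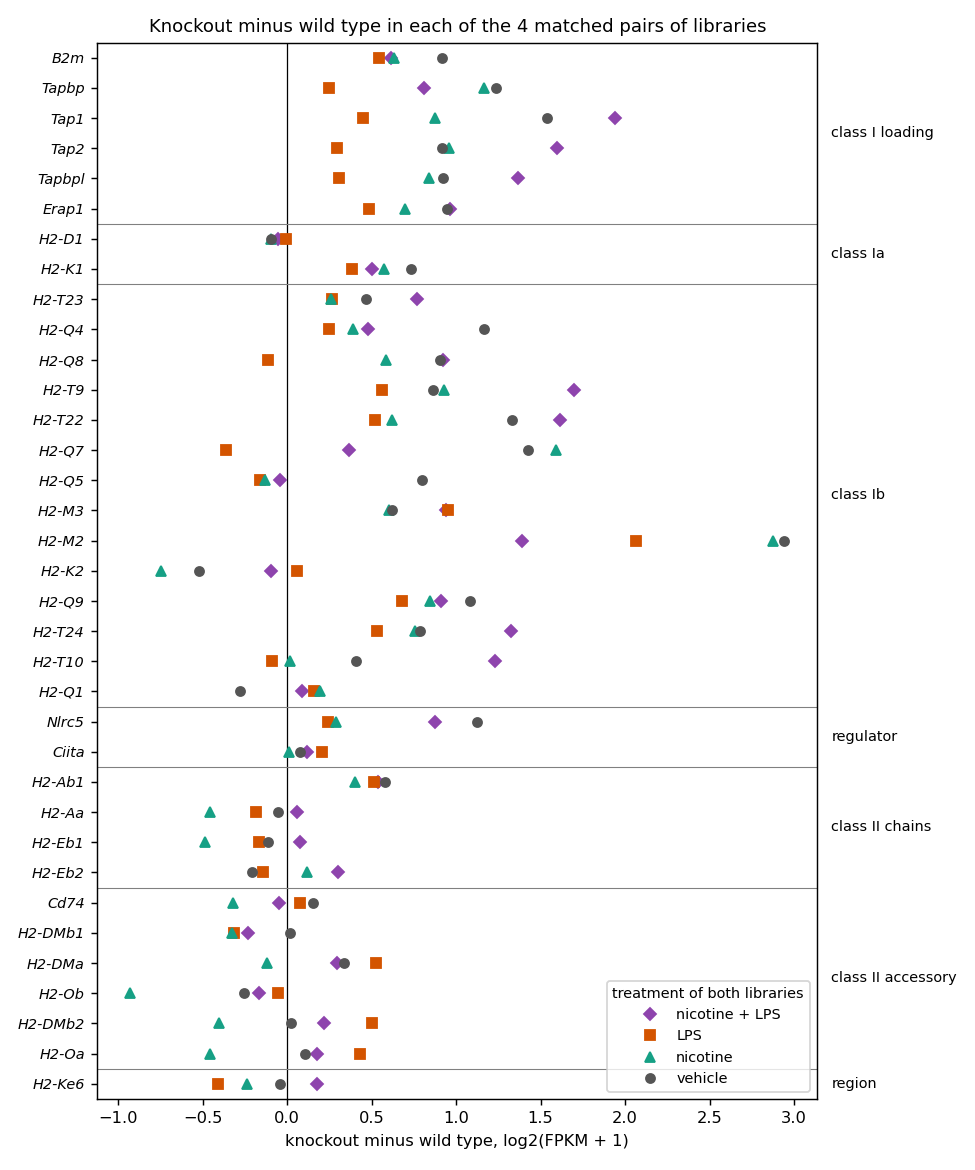
Difference in log2(FPKM + 1) between the knockout and the wild type library of each treatment, for the 35 members grouped by class; each symbol is 1 matched pair of libraries. All 6 loading genes lie right of 0 in all 4 pairs, with the LPS pair lowest for Tap1 (0.45), and the class II accessory genes scatter around 0.

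No member had a nicotine difference that varied with genotype past the threshold. In the genotype by nicotine test, with 2 residual degrees of freedom, 0% of the 10447 genes were called by limma in either direction and 451 had an unadjusted p under 0.05, none of them a member. The members' values ran from -0.41 to 0.67, the highest being Tap2 at 0.67 ± 0.33. Under LPS, the 2 genotypes gave different sizes of the nicotine difference for the transporter: Tap1 differed by -1.57 in knockout and -3.06 in wild type cells, and Tap2 by -1.87 in knockout and -3.18 in wild type cells. Tapbpl gave -0.53 in knockout and -1.59 in wild type, H2-T22 -1.73 in knockout and -2.82 in wild type, and H2-M3 -2.02 in knockout and -2.01 in wild type. With 1 library per group this difference under LPS has no test.

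A list of 28 other genes of antigen processing, chosen with results of these data known, was read beside the members, and all 28 were tested. With LPS, 16 rose and 3 fell (median 0.56), against 32.7% and 26.4% of all genes tested. With nicotine before LPS, 7 were higher and 11 lower (median -0.03), against 26.9% and 28.6%, and with nicotine alone 8 were higher and 9 lower (median 0.10), against 30.1% and 26%, so that the shares for nicotine alone were close to those of all genes. In knockout cells 9 were higher and 1 lower (median 0.08), against 4.76% and 2.88%. The interaction of LPS and nicotine was positive in 2 and negative in 4, against 12.8% and 17.3%, and that of genotype and nicotine passed in 0. Under quantile scaling the LPS rises of the chaperones Calr, Canx and Pdia3 and of Irf2 changed sign.

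The immunoproteasome, which cuts peptides suited to class I molecules, was higher with LPS and lower with nicotine before LPS. Its subunits Psmb8, Psmb9 and Psmb10 and the activator subunits Psme1 and Psme2 rose with LPS by 1.59 (Psme1) to 2.63 (Psme2) and fell with nicotine before LPS by 1.82 (Psme1) to 3.49 (Psmb9). With nicotine alone Psmb9 (-2.12 ± 0.37), Psmb10 (-1.72 ± 0.28), Psmb8 (-1.16 ± 0.34) and Psme1 (-0.76 ± 0.21) were also lower, where Tap1 and Tap2 did not pass, and Psme2 was not called (-0.49 ± 0.42). The Psmb8 and Psme1 calls with nicotine alone were lost without any of the 4 nicotine alone or vehicle libraries (adjusted p up to 0.134). Psmb9 was at 41.5 FPKM in knockout and 7.56 FPKM in wild type cells given nicotine and LPS, against 259 FPKM in knockout and 175 FPKM in wild type cells given LPS alone. The LPS calls and the calls of nicotine before LPS held without each library, and all 5 were higher in knockout by 0.97 (Psme1) to 1.49 (Psmb9), calls that were lost in 6 of 8 fits that left out a library, those without a vehicle, nicotine or nicotine with LPS library of either genotype (adjusted p up to 0.158). Under quantile scaling the LPS calls of Psmb8 (adjusted p = 0.0526) and Psme1 (adjusted p = 0.119) were lost.

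Among regulators, Rfx5, a subunit of the factor that binds class I and class II promoters, was at 1.60 and 1.37 FPKM in knockout and wild type cells given nicotine and LPS, against 10.9 and 9.53 FPKM in knockout and wild type cells given LPS alone, and fell by 2.17 (SE 0.20). With nicotine alone it fell by 2.31 (SE 0.20). The other 2 subunits went the other way: with nicotine before LPS Rfxank was higher by 1.34 ± 0.17 and Rfxap by 0.98 ± 0.21, the second a call lost without the knockout library given nicotine and LPS (adjusted p = 0.0704). With nicotine alone Rfxank was higher by 0.52 ± 0.17, a call lost in 4 of 8 fits that left out a library (either vehicle library, the wild type nicotine with LPS or the knockout nicotine library, adjusted p up to 0.227), and Rfxap did not pass (0.50 ± 0.21). The promoter-binding factors Nfya (1.07 ± 0.14) and Creb1 (0.67 ± 0.15) were higher with nicotine before LPS, the Creb1 call being lost without the knockout library given nicotine and LPS (adjusted p = 0.0917), and with nicotine alone Nfya was higher by 1.26 ± 0.14. Of the molecules that give T cells a second signal, Cd40 rose by 5.80 ± 0.42 and Cd80 by 3.50 ± 0.16 with LPS, and with nicotine before LPS Cd40 fell by 2.54 (SE 0.42) and Cd80 by 1.51 (SE 0.16), while with nicotine alone Cd80 was higher by 1.15 ± 0.16. Cd86 rose by 1.95 ± 0.38 with LPS and by 2.10 ± 0.38 with nicotine alone, and did not pass with nicotine before LPS (0.58 ± 0.38, adjusted p = 0.231). These calls of Rfx5, Cd40, Cd80 and Cd86 held without each library. In knockout cells Cd1d1, a class I-like molecule that presents lipids, was higher by 2.10 ± 0.14, and Lgmn, a lysosomal protease, was lower (-1.96 ± 0.12), and both calls held without each library.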

How the data were processed

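Cultured mouse peritoneal macrophages gave 8 RNA libraries, 1 for each group, made from poly(A) RNA with a kit that does not mark strand. The authors deposited 1 FPKM value for each gene in each library. Tools named in the submitters' processing notes, with no role or order, are HISAT2, Cuffdiff, Cufflinks and CASAVA 1.8, and the build named is mm10. The scaling between libraries is not given in the sources used here. FPKM are not counts and depth is unknown, so no count test or counting interval was used. Where a symbol occurred on several lines, the one with the higher mean was kept.

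Differences were tested on log2(FPKM + 1) with limma 3.58.1 in R 4.3.3 (trended prior). The test took the 10447 genes whose mean FPKM was 1 or more, and p-values were adjusted by Benjamini-Hochberg at 0.05 over all of them. A fold change on this scale understates that of low genes. The model held treatment and genotype, with 3 residual degrees of freedom. Alternatives were a pseudocount of 0.25, no filter, quantile scaling, median centring, other genotype terms, a constant prior and leaving out each library. The fit was tested on simulated data. Shared 50-base stretches, positions and gene types came from GENCODE M21, which held 32 of the 35 members, and promoters from RefSeq. Any member may be named, as may genes of the list of 28, of which some results are not reported here. The members, classes, lists and marker genes were chosen with earlier results of these data known.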

Additional observations from a re-analysis of the deposited data

Results flagged for a closer look

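The LPS by nicotine interaction passed the threshold for 15 of the 35 members, by limma at an adjusted p under 0.05: their nicotine difference with LPS was not the same as that without LPS. Negative calls covered Nlrc5, 2 of 6 loading genes, 0 of 2 classical chains and 6 of 14 non-classical chains. The values were -2.36 for Nlrc5, -2.21 for H2-T9, -1.84 for Tap2, -1.70 for H2-T22, -1.63 for H2-T10, -1.43 for H2-Q9, -1.34 for H2-T24, -0.95 for H2-T23 and -0.78 for Erap1. Under quantile scaling the calls of Tap2, Erap1, H2-T22, H2-T23 and H2-T24 were lost. The interaction was positive at 1.51 for H2-Ob, 1.11 for Ciita, 1.09 for H2-DMb2, 1.00 for H2-DMa, 0.89 for H2-Eb2 and 0.86 for H2-Ke6. All values are differences of log2(FPKM + 1) over 2 libraries in each of the 4 treatments. Among all genes tested, 3143 of 10447 passed the same test, 17.3% negative and 12.8% positive. The calls of Nlrc5, H2-T9 and H2-Q9 held without each library, and that of Nlrc5 alone held under all 14 alternatives. H2-T22, H2-T10 and H2-T23 share sequence with other genes. Sharing could not be measured for H2-T9 and H2-Q9, which the annotation used lacks. How the deposited values divide such reads was not tested.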

How the results depend on the processing

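Each group had 1 library and the labels give no replicate numbers, so no pairing beyond that of the model was possible. With treatment in the model, knockout and wild type libraries were compared within each treatment. With genotype in it, treatments were compared within each genotype. Quantile scaling turned the LPS difference to -0.81 for B2m, -0.49 for Cd74, -0.21 for H2-Ab1, -0.63 for H2-D1 and -0.19 for H2-K1, and reversed no other call. With other genotype terms, the members called were 13 in place of 20 for nicotine with LPS against LPS alone (no genotype term), 2 in place of 15 for the LPS by nicotine interaction (no genotype term) and 1 in place of 14 for knockout against wild type (additive treatments). Genes called over all tested were then 4527 in place of 5804 for nicotine with LPS against LPS alone. They were 1588 in place of 3143 for the interaction and 115 in place of 798 for genotype. With no filter on low values, the members called were 4 for genotype and 8 for the interaction, and 271 genes were called for genotype. Leaving out each library in turn gave 24 to 28 members for LPS (28 with all), 7 to 16 for nicotine alone (13 with all), 14 to 20 for nicotine with LPS (20 with all), 1 to 17 for genotype (14 with all), 3 to 18 for the interaction (15 with all) and 0 for genotype by nicotine. Over all genes these fits called 3793 to 6461 for nicotine alone (5855 with all), 3700 to 5564 for nicotine with LPS (5804 with all), 155 to 1120 for genotype and 1035 to 3706 for the interaction. The cause of these differences was not tested. Of the calls, 22 of 28 for LPS, 6 of 13 for nicotine alone, 14 of 20 for nicotine with LPS, 1 of 14 for genotype and 3 of 15 for the interaction held without each library. The pseudocount, median centring and the constant prior moved no member count by more than 1.5 times. Depth is unknown, 1 library per group leaves no estimate of variation between cultures, and genotype and preparation cannot be told apart.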
